A study of Mus musculus with 4 samples.

Results

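The genes of the PACAP, VIP and secretin-glucagon peptides and of their receptors were examined in brain tissue of the parasubthalamic nucleus (PSTh). The 10 members were taken by symbol: the 4 precursor genes Adcyap1, Vip, Sct and Gcg and the 6 receptor genes Adcyap1r1, Vipr1, Vipr2, Sctr, Glp1r and Gipr, out of 25044 entries in the files. The PSTh is a small hypothalamic cell group beside the subthalamic nucleus, and the series concerns PACAP signalling there in anxiety after stress. The tissue came from naive C57BL/6 mice, an inbred strain, and the 4 libraries, replicates 1 to 4, form 1 group with no stressed animals; the labels name no treatment or transgene. Age, sex and any pooling of tissue are not given in the labels, which also do not state that each replicate is a different mouse; p-values therefore reflect the variation among these 4 samples alone.

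The secretin family are short peptides cut from larger precursors, and each acts on class B G protein-coupled receptors, most of which raise cyclic AMP. PACAP, made from Adcyap1, binds PAC1 (Adcyap1r1) selectively and shares the receptors VPAC1 (Vipr1) and VPAC2 (Vipr2) with VIP. Secretin (Sct) acts on Sctr, the glucagon-like peptides come from Gcg, with Glp1r as the receptor of one of them, and Gipr is the receptor of the gut hormone GIP. In the brain PACAP is known as a peptide of excitatory neurons in stress circuits, and VIP as a peptide of cortical interneurons and of the circadian clock of the suprachiasmatic nucleus.

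The promoters of Adcyap1 and Vip are shown because these are the highest precursor genes here and share a form of the cyclic AMP response element, the site bound by the transcription factor CREB downstream of such receptors. The 130 bases before the annotated start are given on the plus strand from RefSeq, build GRCm38.p6, at chr17:93198887-93199016 for Adcyap1 and chr10:5639088-5639217 for Vip. Capitals mark the letters TGACGTCT, whose first base lies 91 bases before the start in Adcyap1 and 79 bases before it in Vip.
Adcyap1: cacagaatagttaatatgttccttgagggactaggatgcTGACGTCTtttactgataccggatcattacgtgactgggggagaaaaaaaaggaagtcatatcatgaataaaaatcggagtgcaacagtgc
Vip: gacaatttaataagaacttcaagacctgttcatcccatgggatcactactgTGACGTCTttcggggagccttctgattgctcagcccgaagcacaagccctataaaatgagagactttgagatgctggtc

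RefSeq windows of 300 bases, from 250 before to 50 after a start, were found for 8 of the 10 members, in 9 windows because Adcyap1 has 2 starts. TGACGTCT, read on both strands, was in the windows of Adcyap1 and Vip and in 0.584% of all 32851 windows. The palindrome TGACGTCA was in 0 member windows and in 1.79% of all. The core TGACG, which both longer forms contain, was also found in Vipr1 and in 20.8% of all windows. The windows of Adcyap1, at 39% and 45.7% G and C, of Vip, at 41.7%, and of Gcg, at 47%, were below the median of all windows of 52.7%. Those of Adcyap1r1, Vipr1, Vipr2, Glp1r and Sct lay between 65.3% and 73.7%. A match of letters is a description of the window and says nothing of binding.

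The unit, not named in the files, was taken as FPKM, a fragment number divided by both the length of the transcript and the depth of the library, so levels of different genes are compared per length. A gene was tested when its mean was 0.1 FPKM or more, which 9 members passed and Gcg did not. Totals per library were 428612 to 442836 FPKM, and the spacing of low values implied about 19300000 to 20800000 fragments per library. All 8 genes of a list of parasubthalamic markers were detected in every library, with summed levels of 310.3 to 488.1 FPKM. So were all genes of the lateral hypothalamus, suprachiasmatic, thalamus, mammillary and midbrain dopamine lists. Of all 25044 entries, 6160 to 6305 were listed at 0 per library, so detection is not particular to the parasubthalamic list. The libraries differed in genes of other tissue: midbrain dopamine and medial hypothalamic genes and the serotonergic gene Tph2 were highest in replicate 2, thalamic genes in replicate 3, the choroid plexus gene Ttr in replicate 4, and Hox genes were found almost only in replicate 1. Of the 7 genes of the choroid plexus and ependyma list, 6 were above the mean of the other libraries in replicate 4, but only Ttr by more than 2-fold. The lateral hypothalamus list summed to 558.6, 467.6, 190 and 788.8 FPKM in replicates 1 to 4, lowest in replicate 3. Oligodendrocyte genes summed to 5649 to 8196 FPKM, highest in replicate 3, and neuronal genes to 1788 to 2011 FPKM. In bulk tissue, fewer cells of a type and less RNA per cell cannot be told apart.

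Adcyap1r1 and Adcyap1 were the abundant pair, and every other member lay far below them. Adcyap1r1 (ENSMUSG00000029778, chr6:55451978-55501451, plus strand; positions here and below are of GRCm38) was at 41.1, 42.4, 35.7 and 41.0 FPKM in replicates 1 to 4, a mean of 40.0 ± 2.98 (SD, n = 4). Adcyap1 (ENSMUSG00000024256, chr17:93199017-93206537, plus strand) was at 58.1, 33.0, 26.2 and 42.1 FPKM, a mean of 39.8 ± 13.8 (SD, n = 4). The receptor gene varied little, with a coefficient of variation of 7.44%, while the precursor gene varied by 34.6% and was highest in replicate 1 and lowest in replicate 3. These 2 genes made up 90.0% to 94.9% of the summed FPKM of all 10 members.

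**Figure D1:**
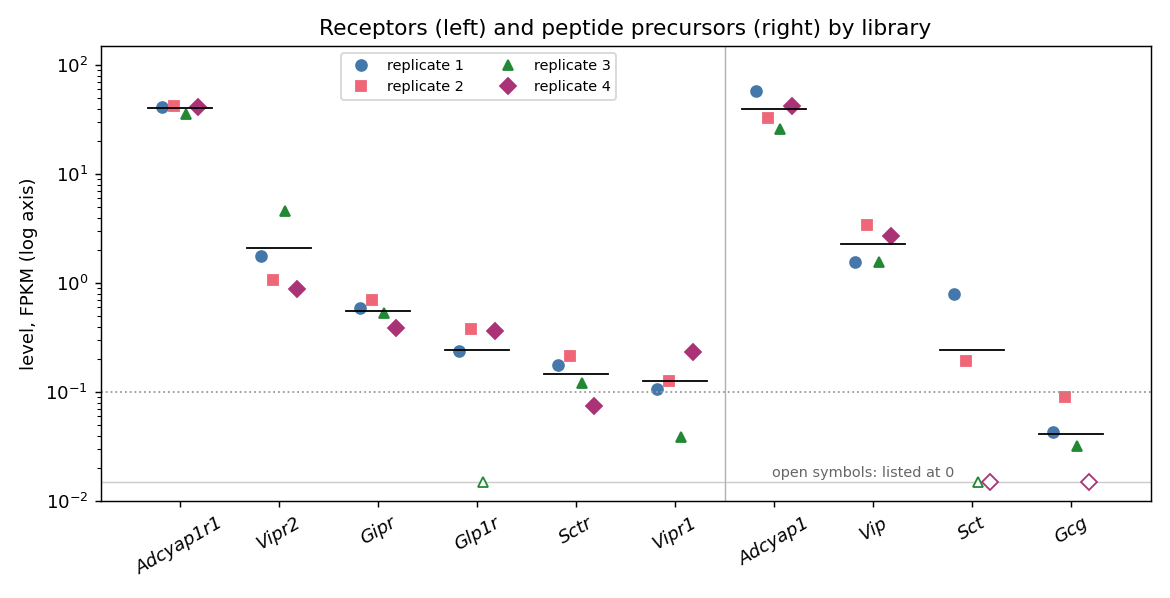
Level of each receptor gene (left of the grey line) and each precursor gene (right) in FPKM on a log axis, with 1 symbol per library and a bar at the mean of the 4 libraries. Open symbols mark libraries where a gene is listed at 0, drawn at the bottom, and the dotted line marks the filter of 0.1 FPKM; Adcyap1r1 and Adcyap1 stand near 40 FPKM and all other members under 5 FPKM.

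Receptor and precursor of the PACAP pair averaged nearly the same FPKM, but stood apart in single libraries. The ratio of Adcyap1r1 to Adcyap1 was 0.707, 1.29, 1.36 and 0.974 in replicates 1 to 4. Differences between genes were taken within each library as log2(FPKM + 0.1) and tested with limma, with p-values adjusted over all genes tested. Adcyap1r1 minus Adcyap1 was 0.07 (SE 0.26, adjusted p = 0.815, limma), with Adcyap1r1 higher in 2 of 4 libraries. The 95% interval, -0.56 to 0.70, leaves room for a difference in either direction, so the test does not show that they are equal. In the fit that takes Adcyap1r1 as the point of reference, the reverse difference was -0.07 (SE 0.15, adjusted p = 0.672, limma). On values multiplied by transcript length, which follow fragments more than molecules, Adcyap1r1 was higher by 0.92 (adjusted p = 0.0134, limma), as its longest transcript has 6107 bases against 3392 for Adcyap1.

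The sum of the 6 receptors was at 43.98, 44.9, 41.0 and 42.9 FPKM in replicates 1 to 4. The sum of the 4 precursors was 60.5, 36.7, 27.8 and 44.8 FPKM. Receptors therefore took 42.1%, 55.1%, 59.6% and 48.9% of the family's summed level in the same order. The summed receptors averaged 43.2 ± 1.69 FPKM and the summed precursors 42.4 ± 13.9 FPKM (SD, n = 4 each), and Adcyap1 made up 89.9% to 96.0% of the precursor sum.

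**Figure D2:**
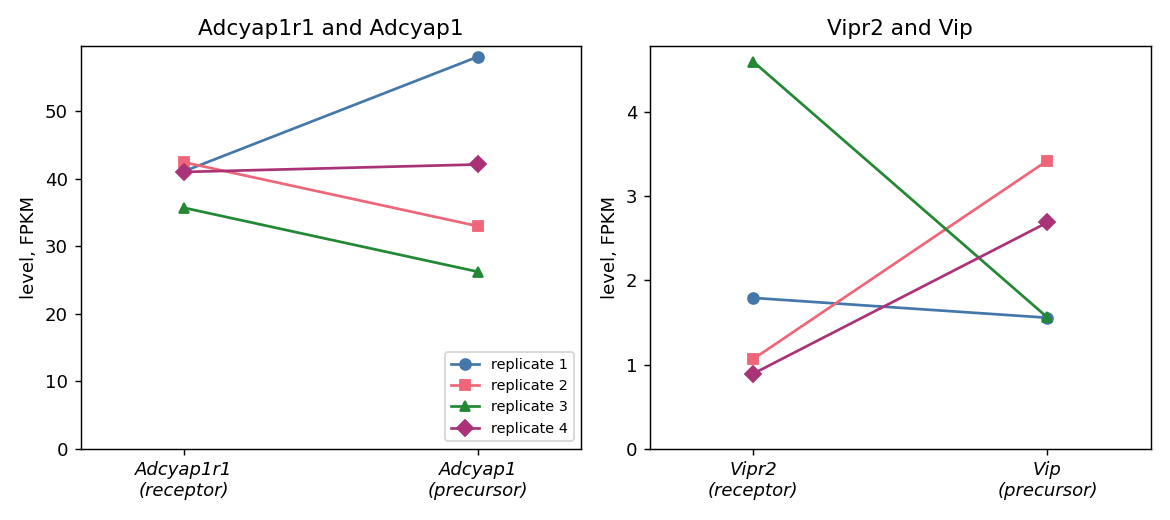
Levels in FPKM of a receptor gene (left) and its precursor gene (right) in each panel, with a line joining the values of 1 library. Adcyap1r1 stays between 35.7 and 42.4 FPKM while Adcyap1 runs from 26.2 to 58.1, and Vipr2 is above Vip in replicates 1 and 3 and below it in replicates 2 and 4.

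Vip and Vipr2 formed a second, much lower level. Vip (ENSMUSG00000019772, chr10:5639218-5647617, plus strand) was at 1.56, 3.43, 1.56 and 2.69 FPKM in replicates 1 to 4, a mean of 2.31 ± 0.917 (SD, n = 4). Vipr2 (ENSMUSG00000011171, chr12:116077726-116146261, plus strand) was at 1.79, 1.07, 4.61 and 0.891 FPKM, a mean of 2.09 ± 1.72 (SD, n = 4). Vip was highest in replicate 2, Vipr2 in replicate 3, and their ranges overlapped. An annotated antisense gene overlaps Vipr2, and the use of strand is not given, so reads of the 2 could not be told apart. Vipr2 minus Vip was -0.35 (SE 0.55, adjusted p = 0.570, limma), higher in 2 of 4 libraries, with a 95% interval of -1.66 to 0.96. The ratio of Vipr2 to Vip was 1.15, 0.311, 2.95 and 0.331 in replicates 1 to 4, so the 2 genes changed order between libraries. Without replicate 3 the difference was -0.97, which also did not pass.

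Among the receptors that bind PACAP, Adcyap1r1 held most of the transcripts. Its share of the summed FPKM of Adcyap1r1, Vipr1 and Vipr2 was 95.6%, 97.3%, 88.5% and 97.3% in replicates 1 to 4, lowest in replicate 3. Vipr2 held 4.17%, 2.44%, 11.4% and 2.12% in the same order. Vipr1 (ENSMUSG00000032528, chr9:121642716-121672954, plus strand) was at 0.108, 0.126, 0.0391 and 0.232 FPKM, the lowest of the 6 receptors by mean. At the implied depth this is at most about 3.7 to 22.5 fragments per library, taken over the longest transcript, so its differences between libraries rest on few fragments.

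The low members were Gipr, Glp1r, Sct, Sctr and Gcg. Gipr (ENSMUSG00000030406, chr7:19156061-19166127, minus strand) was at 0.593, 0.697, 0.539 and 0.390 FPKM in replicates 1 to 4, with a coefficient of variation of 23.1%, the smallest among these 5. Sctr (ENSMUSG00000026387, chr1:120006894-120063536, plus strand) was at 0.177, 0.216, 0.121 and 0.0749 FPKM. Neither gene was listed at 0 in any library.

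The other 3 low members were listed at 0 in at least 1 library. Glp1r (ENSMUSG00000024027, chr17:30901817-30940791, plus strand) was at 0.239, 0.381 and 0.362 FPKM in replicates 1, 2 and 4 and listed at 0 in replicate 3. Up to 28.9 to 44.9 fragments were implied in the other libraries, and an exact 0 in such a file can also be a failed estimate. Antisense genes overlap Glp1r, so its reads carry the same uncertainty of strand as those of Vipr2. Sct (ENSMUSG00000038580, chr7:141278330-141279133, minus strand) was at 0.791 FPKM in replicate 1 and 0.192 in replicate 2 and listed at 0 in replicates 3 and 4, which is at most about 10.2 fragments. Gcg (ENSMUSG00000000394, chr2:62474530-62483650, minus strand) was at 0.0430, 0.0906 and 0.0320 FPKM in replicates 1 to 3 and listed at 0 in replicate 4. At most about 2 fragments were implied for it in any library.

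Most members were lower than Adcyap1. Of the 8 others tested, 7 passed as lower at an adjusted p under 0.05, 0 as higher, and Adcyap1r1 passed in neither direction. Against the same gene 82.8% of all 17629 genes tested were lower and 6.28% higher, so a gene lower than Adcyap1 is the usual case and the count is not particular to the family. Vip was lower by 16.8-fold at -4.07 (SE 0.35, adjusted p = 2.11e-05, limma), below Adcyap1 in 4 of 4 libraries. Vipr2 was at -4.42 (SE 0.49, adjusted p = 9.41e-05, limma), a 21.3-fold difference that was 33.4-fold without replicate 3. Gipr was at -5.89 (SE 0.34, adjusted p = 4.97e-06, limma). Glp1r, Sctr, Sct and Vipr1 lay between -7.02 and -7.47, below Adcyap1 in 4 of 4 libraries. At such low levels the size depends on the 0.1 added before the logarithm: for Vipr1 it was -5.12 with 1 and -8.34 with 0.01.

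The picture against Adcyap1r1 was alike, since 7 of the other 8 members tested were lower and Adcyap1 did not pass. Here 88.5% of all genes were lower and 9.09% higher. Among the receptors, Vipr2 was 22.4-fold lower, Gipr 62.2-fold, Glp1r 136-fold, Sctr 166-fold and Vipr1 186-fold, each in 4 of 4 libraries and with adjusted p-values between 2.67e-08 and 1.08e-05 (limma). Sct was at -7.47, a value that was -8.12 without replicate 1, where it is highest.

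Receptor and ligand were set side by side within each system as receptor minus precursor. Of 7 such pairs tested, 4 passed. Vipr2 and Vipr1 lay below Adcyap1, as given above. Adcyap1r1 lay above Vip by 4.13 (SE 0.29, adjusted p = 3.24e-05, limma), a direction that 54.9% of all genes share. Vipr1 lay below Vip by 10.6-fold, at -3.40 (SE 0.39, adjusted p = 0.000218, limma), as did 28.6% of all genes. Sctr minus Sct was 0.09 (SE 0.82, adjusted p = 0.935, limma) with a 95% interval of -1.86 to 2.05, and the depth cannot show a difference there. Glp1r was above Gcg in 3 of 4 libraries, at values too low for a fit.

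Gipr had no measured ligand, as Gip was listed at 0 in all 4 libraries.

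By mean level the order ran from Adcyap1r1 and Adcyap1 through Vip, Vipr2, Gipr, Sct, Glp1r, Sctr and Vipr1 to Gcg. Each member was compared with the one above it in this order, the lower gene minus the higher. The place of Sct rests on replicate 1: its median of 0.096 FPKM was below those of Glp1r (0.301), Sctr (0.149) and Vipr1 (0.117). Of the 8 steps, 2 passed with the higher gene as the point of reference. With the lower gene in that place 2 passed as well, but only the step from Adcyap1 to Vip passed both ways, because limma's estimate of the error differs between the 2 fits. The genes above each step differed in how many of all genes they could be told from: 97.6% differed from Adcyap1r1, 89.1% from Adcyap1, 86.9% from Gipr, 85.8% from Sctr, 83.4% from Vip, 76.9% from Glp1r, 74.5% from Sct and 66.6% from Vipr2. The step from Adcyap1 to Vip was the one given above. The step from Gipr to Sct was -1.51 (SE 0.54, adjusted p = 0.0324, limma), a 2.85-fold difference, with Sct below Gipr in 3 of 4 libraries but above it in replicate 1. With Sct as the point of reference it did not pass (SE 0.82, adjusted p = 0.137, limma). Lower than Gipr were 11.8% of all genes, and the step did not pass without replicate 2, 3 or 4 (-1.53, -1.13 and -1.25) and was 4.40-fold without replicate 1. Gipr was below Vipr2 in 4 of 4 libraries and their ranges did not overlap, yet the step of -1.47 (SE 0.60, adjusted p = 0.0638, limma) did not pass. With Gipr as the point of reference the same step passed (SE 0.37, adjusted p = 0.00751, limma). The steps from Vip to Vipr2, Sct to Glp1r, Glp1r to Sctr and Sctr to Vipr1 were within the spread between libraries, with differences between -0.35 and 0.38.

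The libraries were then compared with one another. Each library was set against the mean of the other 3 as a difference of log2(FPKM + 0.1), and a value past 1, which is 2-fold, was called. With 1 library on one side this is a description with no test. Of the 9 members, 3 were past 2-fold in at least 1 library, against 11.8% of all 17630 genes. Those 3 were Vipr2, Glp1r and Sct, in 6 values. By library, 1, 0, 3 and 2 members were past 2-fold in either direction in replicates 1 to 4, against 5.22%, 4.71%, 6.19% and 4.5% of all genes in the same order. Both counts hold Sct, at 2.64, -1.57 and -1.57 in replicates 1, 3 and 4, which passed the filter only through replicate 1. Its calls were therefore partly fixed by the filter, and the counts are no measure of excess over all genes.

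**Figure D3:**
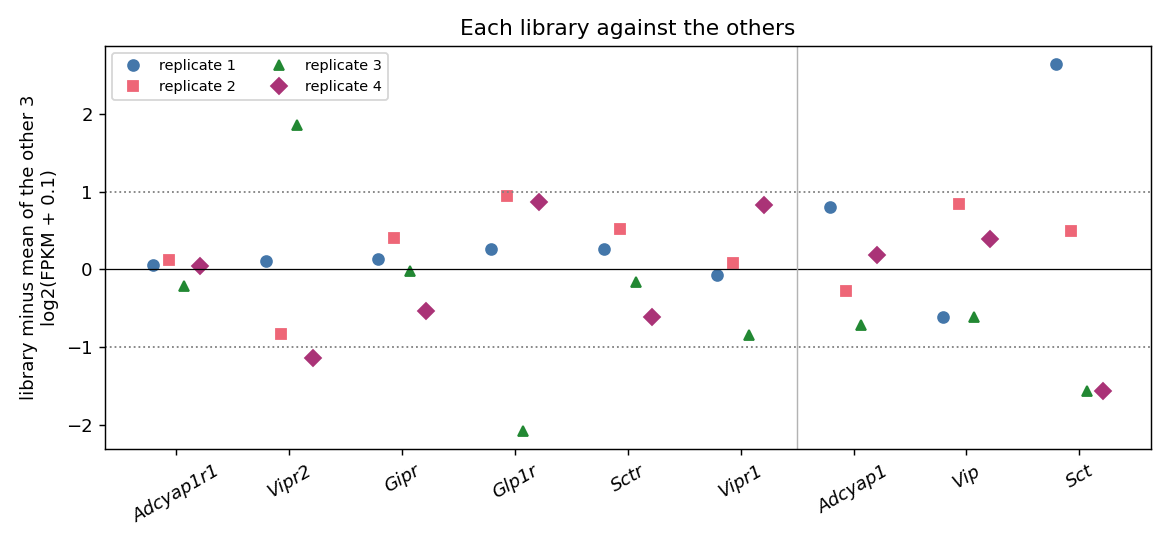
Difference of each library from the mean of the other 3, in log2(FPKM + 0.1), for the 6 receptor genes (left of the grey line) and 3 precursor genes (right). Dotted lines mark 2-fold; Adcyap1r1 stays within 0.22 of 0 while Sct in replicate 1 reaches 2.64, Vipr2 in replicate 3 reaches 1.86 and Glp1r in replicate 3 falls to -2.08.

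Replicate 3 held 3 of the 6 values. Vipr2 was 1.86 above the other libraries there, at 4.61 FPKM against 0.891 to 1.79, and Glp1r (-2.08) and Sct (-1.57), both listed at 0, were below. In that library 2.72% of all genes were past 2-fold as higher and 3.48% as lower. The thalamus list was higher in replicate 3 too. There 7 of its 9 genes were past 2-fold as higher, with a median of 2.03 against -0.05 over all genes. Its summed level was 345.4 FPKM against 75.9 to 110.5. In replicate 4, where Vipr2 was lowest, the list summed to 110.5 FPKM, above replicates 1 and 2. Prkcd, a kinase gene of thalamic relay neurons, was at 172 FPKM in replicate 3 and at 3.72 to 13.4 elsewhere. The part of thalamic tissue in the Vipr2 value was not tested. The medial hypothalamus list was lower in that library, with 8 of 12 genes past 2-fold and a median of -1.70, and of the 6 lateral hypothalamus genes 3 were past 2-fold as lower and 1 as higher, with a median of -0.77. The part of hypothalamic tissue in the Glp1r value was not tested. In replicate 4, Vipr2 was past 2-fold as lower, at -1.14, as were 2.53% of all genes, and Sct at -1.57.

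Replicate 1 held 1 value past 2-fold, Sct at 2.64, where 2.34% of all genes were past 2-fold as higher. Sct was at 0.791 FPKM there against 0 to 0.192. Sct passed the filter of 0.1 FPKM only through this library, so a high value there was partly fixed by the filter. The same holds for its low values in replicates 3 and 4, which are set against that high value. Among genes of the hindbrain and spinal cord, Hoxb8, a gene of the spinal and caudal hindbrain axis, was at 4.81 FPKM against 0 elsewhere. The part of such tissue in the Sct value was not tested. Of 10 genes of that list, 1 was at 0 in replicate 1 and 7, 7 and 8 in replicates 2 to 4.

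Adcyap1 itself stayed within 2-fold of the other libraries, at 0.81, -0.28, -0.72 and 0.19 in replicates 1 to 4. Its SD over the libraries, 0.49 on the log2 scale, was larger than that of 85.2% of all genes tested, whereas that of Adcyap1r1, 0.11, was larger than that of 30.02%. The median over all genes was 0.17. The parasubthalamic list ran in the same order of libraries, with medians of 0.56, -0.23, -0.53 and 0.26 in replicates 1 to 4, against medians between -0.05 and 0.04 over all genes. Its summed level was 488.1, 345.9, 310.3 and 427.5 FPKM. The list of the neighbouring mammillary nuclei, which overlaps it in part, ran in that order too, with medians of 0.57, -0.03, -0.45 and 0.12 and summed levels of 63.4, 41.4, 35.9 and 50.1 FPKM. The lateral hypothalamus list was also lowest in replicate 3, where Adcyap1 was lowest, but highest in replicate 4. The part of differing PSTh, mammillary or lateral hypothalamic content in the Adcyap1 values was not tested.

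Genes whose pattern over the 4 libraries lay nearest a member's were sought among 131 genes of the lists that averaged at least 1 FPKM. The measure was the largest difference in any library between log2 values centred over the 4 libraries. For Adcyap1 the nearest were Lmx1a at 0.12, Nxph4 at 0.15 and Calb2 at 0.24, all from the parasubthalamic list. Lmx1a encodes a transcription factor, Nxph4 a secreted neurexophilin and Calb2 the calcium-binding protein calretinin. Lmx1a was at 4.07, 2.50, 1.76 and 3.38 FPKM in replicates 1 to 4. Nxph4 was at 34.2, 23.8, 18.4 and 24.9 FPKM and Calb2 at 225.7, 152.5, 136.9 and 197.8 FPKM, each highest in replicate 1 and lowest in replicate 3 like Adcyap1. Of all 13043 genes that averaged at least 1 FPKM, 0.0383% were as near as Lmx1a and 0.314% as near as Calb2, the gene itself included. Both were picked as nearest among the 131, so small shares were partly fixed by that choice. With 4 libraries this is a description and no correlation was computed.

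For Vipr2 the nearest were Lef1 at 0.51, Rgs16 at 0.60 and Plekhg1 at 0.69. Lef1, a transcription factor gene, and Plekhg1 came from the thalamus list, and Rgs16, a regulator of G protein signalling, from the suprachiasmatic list. Lef1 was at 10.07 FPKM in replicate 3 against 3.01 to 3.31 elsewhere. All 3 were highest in replicate 3, but Vipr2 in replicate 1 stood above, and in replicate 4 below, where these genes stood.

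For Vip the nearest were Pdyn at 0.30, Ghrh at 0.35 and Chgb at 0.39. Pdyn is the precursor of dynorphin, Ghrh of growth hormone-releasing hormone and Chgb encodes a granin of secretory vesicles. All 3 were highest in replicate 2, as was Vip, at 0.84 above the other libraries. Ghrh was at 3.02, 8.30, 2.86 and 4.14 FPKM in replicates 1 to 4. The medial hypothalamus list, which holds Ghrh, was higher in replicate 2 as well, with 8 of 12 genes past 2-fold and a summed level of 261.1 FPKM against 44.6 to 80.5. Avp, the vasopressin gene, was at 90.5 FPKM there against 2.17 to 18.3. The suprachiasmatic list, which holds Vip and Avp, had 2 of its 8 genes past 2-fold as higher and 2 as lower in replicate 2. The part of hypothalamic tissue in the Vip value was not tested.

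**Figure D4:**
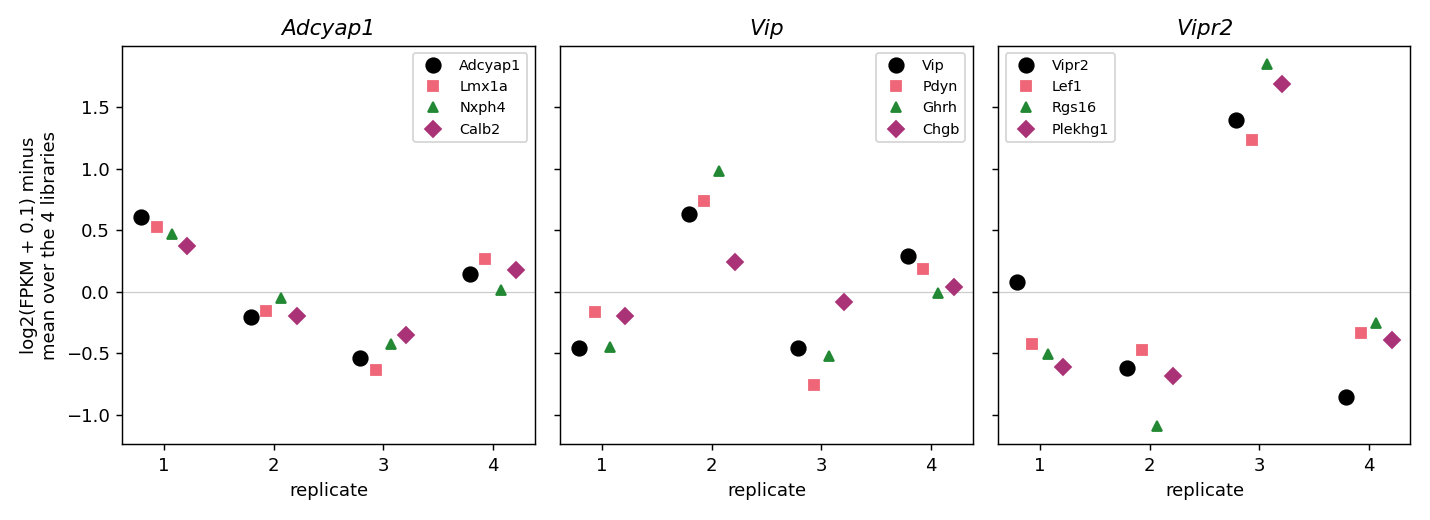
Log2(FPKM + 0.1) in each library minus the gene's own mean over the 4 libraries, for Adcyap1, Vip and Vipr2 (black) and the 3 listed genes nearest to each in pattern (coloured). Lmx1a stays within 0.12 of Adcyap1 in every library, while genes nearest to Vipr2 differ from it by up to 0.69.

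Apart from Ghrh, the rest of the secretin family was listed at or near 0. Ghrh averaged 4.58 ± 2.54 FPKM (SD, n = 4), a hypothalamic hormone gene 9.41-fold below Adcyap1r1 at -3.23 (SE 0.22, adjusted p = 2.55e-06, limma). Of the other 4, Gip and Gcgr, the glucagon receptor gene, were listed at 0 throughout. Ghrhr, the receptor of growth hormone-releasing hormone, was at 0.0281 FPKM in replicate 1 and listed at 0 elsewhere, and Glp2r was at 0.0196 to 0.119 FPKM.

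Genes of peptide processing and breakdown lay on both sides of Adcyap1r1, with the convertases below it, and genes of receptor signalling lay mostly below it. Of 12 genes of peptide processing and breakdown, 7 were higher than Adcyap1r1 and 5 lower, with a median difference of 0.83. Over all genes the median was -3.02, with 9.09% higher and 88.5% lower. Against Adcyap1 the same 12 genes gave 7 higher, 4 lower and 1, Pcsk2, that did not pass. The highest were Cpe, a carboxypeptidase that trims peptide precursors, at 1278 ± 84.5 FPKM, Scg2, a granin, at 323.0 ± 49.7 FPKM and Pcsk1n, an inhibitor of a convertase, at 279.8 ± 29.0 FPKM (SD, n = 4 each). The neuroendocrine convertases, which cleave precursors, were lower than Adcyap1r1, Pcsk2 at -0.20 (SE 0.08, adjusted p = 0.0384, limma) and Pcsk1 at -1.89 (SE 0.12, adjusted p = 1.81e-06, limma). Dpp4, a peptidase that shortens GLP-1 and GIP, was at -6.49 (SE 0.28, adjusted p = 1.87e-07, limma). The convertase gene Furin was at -3.03 and the peptidase gene Mme at -4.14. The 5 lower genes were thus these convertases and peptidases, while the 7 higher ones included granins and the inhibitor Pcsk1n. Of 26 genes of receptor signalling, 7 were higher than Adcyap1r1, 18 lower and 1, the G protein subunit gene Gnal, did not pass, with a median difference of -0.93. Gnas, the stimulatory G protein subunit, was at 967.4 ± 47.1 FPKM, and the protein kinase A subunit genes Prkar1a and Prkar1b were 7.12-fold and 7.70-fold above Adcyap1r1. All 8 adenylyl cyclase genes of the list were lower than Adcyap1r1.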

How the data were processed

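Per the labels' protocols, TRIzol was used on brain tissue and a dual-mode mRNA kit on the RNA. The submitters' processing notes name GRCm38; aligner, quantifier, annotation and strand use are not stated. No header or label names a unit, and the deposited values were taken as FPKM because they were not whole, summed to different totals and, multiplied by transcript length, gathered at steps in low genes. Counts could not be recovered, so the depths are rough and fragments per gene are upper estimates over the longest transcript. GENCODE M21 gave symbols and positions for 22022 of 22036 Ensembl identifiers. Replicate 3 was taken from its sample's title, as its column carries a letter.

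The members, gene lists and tests were chosen with earlier results of these data known, and the promoter motifs after values were seen. Each gene with a mean of at least 0.1 FPKM was compared with a member within libraries as a difference of log2(FPKM + 0.1), which shrinks differences of low genes. An intercept was fitted in limma 3.58.1 (R 4.3.3), two-sided, and p-values were adjusted over 17629 genes by Benjamini-Hochberg, with 0.05 as threshold. Prior degrees of freedom were limited to 3.78, those found when fitting each gene's level, because differences that share one member's deviation can make that estimate infinite. The error of a difference therefore depends on which gene of a pair is the point of reference. The fit was also run on simulated data with independent normal values for each gene. Such data lack the differences of tissue between these libraries, so no conclusion was drawn from them. The alternatives were other added constants, filters, scalings, transcript length and leaving out a replicate.

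By rule, the text names the members, the rest of the secretin family, and related receptors and RAMPs. The highest genes of other lists and the genes nearest in pattern are also named by rule. Pcsk1, Pcsk2, Furin, Dpp4, Mme, Gnal and Adcy1 were added after their values were seen. Figures and tables were made in Python 3.11.15 (matplotlib 3.10.9, numpy 2.4.6, pandas 2.3.3).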

Additional observations from a re-analysis of the deposited data

Results flagged for a closer look

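Dixon's test was applied to 72 named genes to find a library standing apart, and it did so in 14 genes, 0 of the 10 members among them; chance gives about 1 in 20, and of all 17630 genes tested between libraries 7.32% stood apart. The counts are no measure of excess, since Lef1, Rgs16 and Plekhg1 were named for a pattern like that of Vipr2, and a gene found in 1 library alone, as Ghrhr and Hoxb8 were, always stands apart. In replicate 1 these were Ghrhr at 0.0281 FPKM, Hoxb8 at 4.81 FPKM, both listed at 0 elsewhere, and the glycine transporter gene Slc6a5 at 4.83 FPKM against 0.0746 to 0.361. In replicate 2 they were the dopamine genes Th at 222.6 FPKM against 103.4 to 117.9 and Slc6a3 at 195.9 FPKM against 88.9 to 92.5, and Tph2 at 26.7 FPKM against 0.198 to 0.319. In replicate 3 they were Ramp3 at 61.4 FPKM against 3.45 to 8.06, Prkcd at 171.9 FPKM against 3.72 to 13.4, Rgs16 at 35.7 FPKM against 4.55 to 8.22, Lef1 at 10.07 FPKM against 3.01 to 3.31, Plekhg1 at 17.2 FPKM against 3.24 to 3.98, the ciliary gene Ccdc153 at 4.30 FPKM against 2.81 to 2.84, and Prkar1b, which was low at 278.6 FPKM against 316.6 to 322.1. In replicate 4 it was Ttr, a choroid plexus gene, at 49.7 FPKM against 0.587 to 1.99.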

How the results depend on the processing

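With a filter of 1 FPKM only 4 members could be tested, so the counts of members lower than Adcyap1 and than Adcyap1r1 and of receptor and ligand pairs that passed each became 2; under every other alternative they were within 1.5 times of 7, 7 and 4. Steps in the order of levels that passed, 2 with the settings of the report, numbered 1 with 0.01 added before the logarithm, 1 without a filter, 1 with the filter of 1 FPKM, 5 on values multiplied by transcript length, and 1 to 2 with a replicate left out. Member values past 2-fold between libraries, 6 in the report, were 11 after rescaling every library to a common larger total, where 0.1 weighs less, 1 with 1 added and 2 with the filter of 1 FPKM. All differences that changed sign were ones that had not passed. With 1 replicate left out, Adcyap1r1 minus Adcyap1 ran from -0.058 to 0.26. Vipr2 minus Vip was 0.041 on values multiplied by length and ran from -0.97 to 0.067 with 1 replicate left out. Sctr minus Sct was -0.077 with 1 added and ran from -0.26 to 0.69. Glp1r minus Sct ran from -0.22 to 0.98, Sctr minus Glp1r was 0.094 with 0.01 added and ran from -0.77 to 0.082, and Vipr1 minus Sctr was 0.74 on values multiplied by length and ran from -0.52 to 0.0080. Gipr minus Vipr2, which did not pass in the report, passed with Gipr as the point of reference (adjusted p = 0.00751), with limma's unlimited prior (adjusted p = 0.0370) and on values multiplied by length (-1.66, adjusted p = 0.0464). Sct minus Gipr, which passed, did not with Sct as the point of reference (adjusted p = 0.137), with 0.01 added (adjusted p = 0.0510) or without a filter (adjusted p = 0.0861). The exchange of the 2 genes of a pair, chosen after seeing the data, changed no other call between members given in the report. It was not run for genes outside the family. The cause of these changes was not tested. All genes lower than Vip were 5036, against 12164 without a filter, 365 with the filter of 1 FPKM and 2895 on values multiplied by length, and those higher than Adcyap1r1 were 1602, against 627 by length. No replicate block between groups could be fitted, as the libraries form 1 group; differences between genes were already taken within libraries. Depth limits Sct, Sctr, Gcg and Vipr1, which rest on few fragments.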

Other observations

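The receptors and accessory proteins nearest to the secretin family were also lower than Adcyap1r1, in 9 of 9 cases against 88.5% of all genes, with a median difference of -2.63 against -3.02 over all genes. Ramp1, a partner protein that alters the ligand choice of class B receptors, was closest at 25.02 ± 1.73 FPKM (SD, n = 4), -0.68 against Adcyap1r1 (SE 0.07, adjusted p = 4.95e-05, limma). Ramp2, another of these proteins, was at 17.4 ± 1.25 FPKM. Crhr1, which encodes a receptor of the stress peptide CRH, was at 7.77 ± 0.910 FPKM, Pth1r, the parathyroid hormone receptor gene, at 6.40 ± 0.585 FPKM, and Calcrl, which forms CGRP and adrenomedullin receptors with RAMPs, at 1.503 ± 0.305 FPKM. Lowest were Crhr2, the second receptor gene of that hormone family, at 0.897 ± 0.337 FPKM and Pth2r at 0.728 ± 0.131 FPKM.

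Ramp3 and Calcr moved in opposite directions in the library where Vipr2 was highest. Ramp3 was at 61.4 FPKM in replicate 3 and at 5.65, 3.45 and 8.06 FPKM in replicates 1, 2 and 4. Calcr, the calcitonin receptor gene, was at 0.764 FPKM in replicate 3 and at 3.92, 4.78 and 3.06 FPKM in the same order. The cyclase gene Adcy1 was past 2-fold as higher in replicate 3, at 1.56, the only one of the 8 cyclases to be so there. Thalamic genes were high in that library, and their part in these values was not tested.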
